A study of Mus musculus with 21 samples.

Results

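Igfbp7, Chad and Jaml are 3 of the 11736 genes measured by RNA sequencing in cultured mouse natural killer (NK) cells that lacked Ikaros (gene Ikzf1), Aiolos (gene Ikzf3), both, or neither. They were selected on their RPKM values in all 15 libraries, because their level in the double knockout departed from the sum of the changes in the single knockouts, so the levels below are a description with no test. The groups were the DKO (Ikzf1/Ikzf3 DKO) with 3 libraries named S5 to S7, the Ikzf1 KO with 4 named S12 to S15, the Ikzf3 KO with 4 named S1 to S4, and the Cre only controls with 4 named S16 to S19. The deletions were conditional on Cre in NK cells, and the controls are labelled as carrying Cre only. The promoter that drives Cre and the age of the mice are not given in the sources used here. In all 4 groups the cells were sorted from spleen and kept in human interleukin 15 at 50 ng/ml, a cytokine on which NK cells depend. A further 6 directly sorted samples were not analysed here.

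Ikaros and Aiolos are zinc finger transcription factors of lymphocytes that bind related DNA sequences and can act as repressors or activators. The chosen genes encode proteins that work outside the cell or at its surface. Igfbp7 encodes a secreted protein that binds insulin-like growth factors weakly and is known from blood vessels and stroma. Chad encodes chondroadherin, a leucine-rich repeat protein of cartilage matrix that binds collagen and integrins. Jaml encodes a membrane protein of leukocytes with immunoglobulin domains, whose partner on epithelia is CXADR, the coxsackievirus and adenovirus receptor.

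The 3 genes lie on different chromosomes, and the deposited values cover whole genes on the build mm10. Igfbp7 (ENSMUSG00000036256) spans positions 77349240 to 77408041 of chromosome 5 on the minus strand. Chad (ENSMUSG00000039084) spans 94565047 to 94569127 of chromosome 11 on the plus strand, inside the span of Acsf2 on the minus strand, with 0 shared exon bases. Jaml (ENSMUSG00000048534) spans 45079183 to 45108534 of chromosome 9 on the plus strand and shares 397 exon bases with the antisense noncoding gene Gm10684, while Igfbp7 shares 85 with Polr2b on the plus strand. Whether strand was used in counting is not given in the sources used here, so reads in these shared bases cannot be told apart. Polr2b averaged 33.4 RPKM in DKO and 33.1 RPKM in Cre only cells, where Igfbp7 was near 0. RPKM is the read number of a gene divided by its length and by the size of the library.

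The promoters are shown because the choice of genes says nothing of their sequence, and Igfbp7 and Chad shared a pattern of expression. That shared pattern is not independent of how the genes were chosen. They are the 250 bases before the RefSeq start of each gene in GRCm38.p6 (the same assembly as mm10), read 5′ to 3′ on the gene's strand, at chr5:77408046-77408295, chr11:94564797-94565046 and chr9:45078933-45079182. Capitals mark matches, on either strand, to TGGGAA (a core bound by Ikaros family proteins), TGANTCA (bound by AP-1), GGGCGG (the GC box) and TATAAA (the TATA box).
Igfbp7: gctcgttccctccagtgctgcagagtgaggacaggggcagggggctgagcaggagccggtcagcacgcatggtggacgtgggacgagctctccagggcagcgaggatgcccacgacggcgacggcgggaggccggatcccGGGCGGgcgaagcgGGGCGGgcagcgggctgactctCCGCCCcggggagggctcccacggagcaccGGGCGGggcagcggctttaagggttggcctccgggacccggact
Chad: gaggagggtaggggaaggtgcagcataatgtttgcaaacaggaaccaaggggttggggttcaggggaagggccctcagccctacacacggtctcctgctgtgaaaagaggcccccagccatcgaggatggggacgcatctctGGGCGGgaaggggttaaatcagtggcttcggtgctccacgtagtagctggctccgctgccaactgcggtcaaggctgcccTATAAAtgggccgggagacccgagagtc
Jaml: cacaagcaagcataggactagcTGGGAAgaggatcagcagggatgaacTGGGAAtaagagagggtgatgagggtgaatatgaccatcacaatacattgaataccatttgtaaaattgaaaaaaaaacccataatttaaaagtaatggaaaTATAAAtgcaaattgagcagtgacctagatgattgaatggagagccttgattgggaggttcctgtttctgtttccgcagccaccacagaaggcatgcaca
The Igfbp7 window was the richest in G and C at 74% and held 4 GC boxes, with first bases at -110, -96, -74 (reverse strand) and -44 from the start. The Chad window, at 60.4%, held a GC box at -108 and a TATA box at -28. The Jaml window, at 40.8%, held TGGGAA at -228 and -202 and TATAAA at -100. No matches overlapped, and none of the 3 windows held TGANTCA. Over 32851 promoter windows of the same length the median GC share was 52.4%. TGGGAA was found in 21.6% of them, and in 2.77% at least 2 times, TGANTCA in 6.75%, GGGCGG in 32.7% and TATAAA in 12.4%. A match is only a run of letters, and no binding was measured here.

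Igfbp7 was near 0 in the 12 libraries outside the DKO and was well expressed in DKO cells. It had 78.1, 67.4 and 57.6 RPKM in the DKO libraries S5, S6 and S7. Its values in Ikzf1 KO cells (S12 to S15) were 0.375, 0.478, 0.554 and 1.03 RPKM. Those in Ikzf3 KO cells (S1 to S4) were 0.139, 0.0942, 0 and 0.136 RPKM, and those in Cre only cells (S16 to S19) 0.172, 0, 0 and 0 RPKM. All DKO libraries therefore stood far above all others. The steps between the deposited values give back whole reads for these genes. Igfbp7 rested on 1406, 1660 and 1078 reads in the DKO libraries, on 8, 7, 10 and 28 in the Ikzf1 KO, on 2, 1, 0 and 2 in the Ikzf3 KO and on 3, 0, 0 and 0 in the Cre only libraries. A count of 0 in S17, S18 and S19 allows up to 0.169, 0.184 and 0.152 RPKM (3 reads each).

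The order of Igfbp7 levels was DKO, Ikzf1 KO, then Ikzf3 KO and Cre only, whose ranges overlapped. Every Ikzf1 KO library lay above every Ikzf3 KO and Cre only library, at a level far below that of DKO cells. Summed over libraries, the DKO read rate was 103-fold that of Ikzf1 KO cells (exact 95% counting interval 79.0 to 138; 4144 against 53 reads). Against Cre only cells the rate in DKO cells was 1605-fold (549 to 7786; 3 reads in Cre only), and that in Ikzf1 KO cells 15.5-fold (5.03 to 77.6). These intervals cover counting error only, not the spread between samples. On log2(RPKM + 0.5), which understates changes of genes near 0, the difference was 6.97 ± 0.20 (SE) for DKO, 1.01 ± 0.18 for Ikzf1 KO and 0.13 ± 0.18 for Ikzf3 KO, each against Cre only cells. Igfbp7 passed the filter on low values (RPKM of 1 or more, reached in 3 or more libraries) through the DKO libraries and S15.

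Chad was low in 12 libraries and high in the 3 DKO libraries, but at very different levels within the DKO. It had 239, 45.4 and 20.2 RPKM in the DKO libraries S5, S6 and S7. Its values in Ikzf1 KO cells, in the same library order as above, were 2.56, 1.87, 2.31 and 2.20 RPKM. Those in Ikzf3 KO cells were 2.15, 2.44, 1.37 and 1.86 RPKM, and those in Cre only cells 4.24, 3.11, 1.72 and 1.82 RPKM. The lowest DKO library was above the highest of the others, while the other 3 groups overlapped. Within the DKO the highest library was 11.8-fold the lowest, against 1.36-fold for Igfbp7 and 1.73-fold for Jaml. Reads behind the Chad values numbered 5977, 1556 and 526 in the DKO libraries and 29 to 103 in the others.

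The log2 difference of Chad in DKO cells was 4.32 ± 0.56 (SE) against Cre only, 4.49 ± 0.56 against Ikzf1 KO and 4.66 ± 0.56 against Ikzf3 KO cells. Without S5 these were 3.33 ± 0.34, 3.50 ± 0.34 and 3.67 ± 0.34. The single deletions differed from Cre only cells by -0.17 ± 0.52 (Ikzf1 KO) and -0.34 ± 0.52 (Ikzf3 KO), and without the Cre only libraries S16 and S17 by 0.26 ± 0.65 and 0.09 ± 0.65, so neither had a fixed sign.

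Jaml, in contrast to the other two, was highest in Cre only cells and was lower in every group with a deletion, least so in DKO cells. It had 6.37, 6.95 and 10.99 RPKM in the DKO libraries S5, S6 and S7. Its values in Ikzf1 KO cells were 1.80, 3.11, 2.89 and 1.52 RPKM. Those in Ikzf3 KO cells were 2.87, 2.93, 2.53 and 4.69 RPKM, and those in Cre only cells 21.1, 15.02, 20.1 and 20.7 RPKM. The order was Cre only, DKO, then Ikzf3 KO and Ikzf1 KO, whose ranges overlapped, and no DKO library overlapped with any other group. Against Cre only cells Jaml differed by -1.22 ± 0.25 (SE) in DKO, -2.83 ± 0.23 in Ikzf1 KO and -2.41 ± 0.23 in Ikzf3 KO cells on the log2 scale. DKO cells were higher than Ikzf1 KO cells by 1.61 ± 0.25 and than Ikzf3 KO cells by 1.19 ± 0.25. Jaml rested on 80 to 1051 reads per library.

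**Figure D1:**
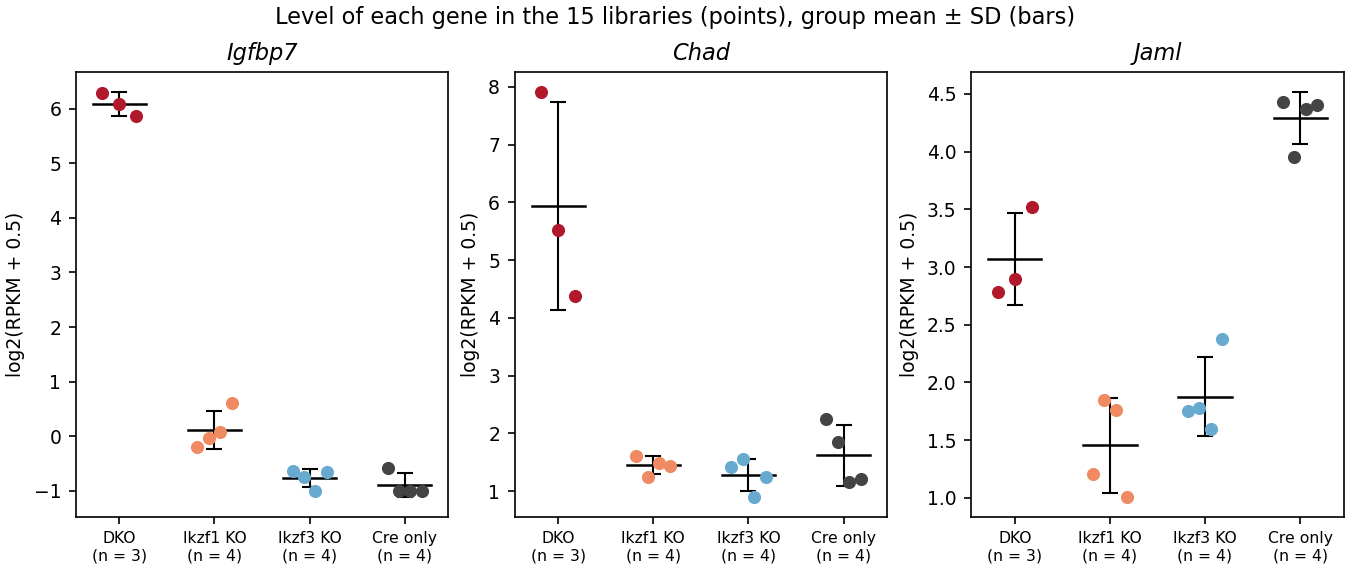
Level of Igfbp7, Chad and Jaml as log2(RPKM + 0.5) in each library (points) by group, with the group mean (line) and SD (bars). Igfbp7 and Chad are high in the 3 DKO libraries, with Chad spread from 20.2 to 239 RPKM, and Jaml lies between the single knockouts and Cre only cells in the DKO.

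The departure from additivity is the DKO level minus what the changes in both single knockouts, added on the log2 scale, would give. For Igfbp7 the sum of the single changes corresponded to 0.687 RPKM and the DKO mean on the log2 scale to 67.2 RPKM, a departure of 5.83 ± 0.27 (SE). For Chad the sum corresponded to 1.65 RPKM and the DKO mean to 60.6 RPKM, a departure of 4.83 ± 0.77, and 3.84 ± 0.44 without S5. For Jaml the sum corresponded to 0.016 RPKM and the DKO mean to 7.88 RPKM, a departure of 4.02 ± 0.34. So all 3 departures were positive, but the DKO level of Igfbp7 and Chad lay above the Cre only level and that of Jaml below it. Each DKO library exceeded the sum, by 5.61 to 6.05 for Igfbp7, 3.27 to 6.80 for Chad and 3.74 to 4.48 for Jaml. For Jaml a sum at 0.016 RPKM left almost no room below it, so the positive sign was nearly fixed in advance.

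The predicted level depends on the scale. On linear RPKM the sum of the single changes was 0.659 for Igfbp7, 1.47 for Chad and -13.6 for Jaml, a level below 0 that no gene can have. The linear departure was 67.01 ± 5.92 RPKM (SE from the spread within groups) for Igfbp7, 100.0 ± 69.1 for Chad and 21.7 ± 2.12 for Jaml. That of Chad was within 2 SE of 0 and was 31.4 RPKM without S5. Multiplying the ratios of the group means, with no pseudocount, gave 1.31 RPKM for Igfbp7, 1.61 for Chad and 0.394 for Jaml as the predicted DKO level. By all 3 ways the prediction lay below the observed DKO means of 67.7 ± 10.2, 101 ± 120 and 8.10 ± 2.52 RPKM (SD, n = 3). For Jaml this was fixed in advance on the linear scale, where the prediction was below 0, and nearly so on the log2 scale. The genes were chosen on their departure, so the shared direction is no support.

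**Figure D2:**
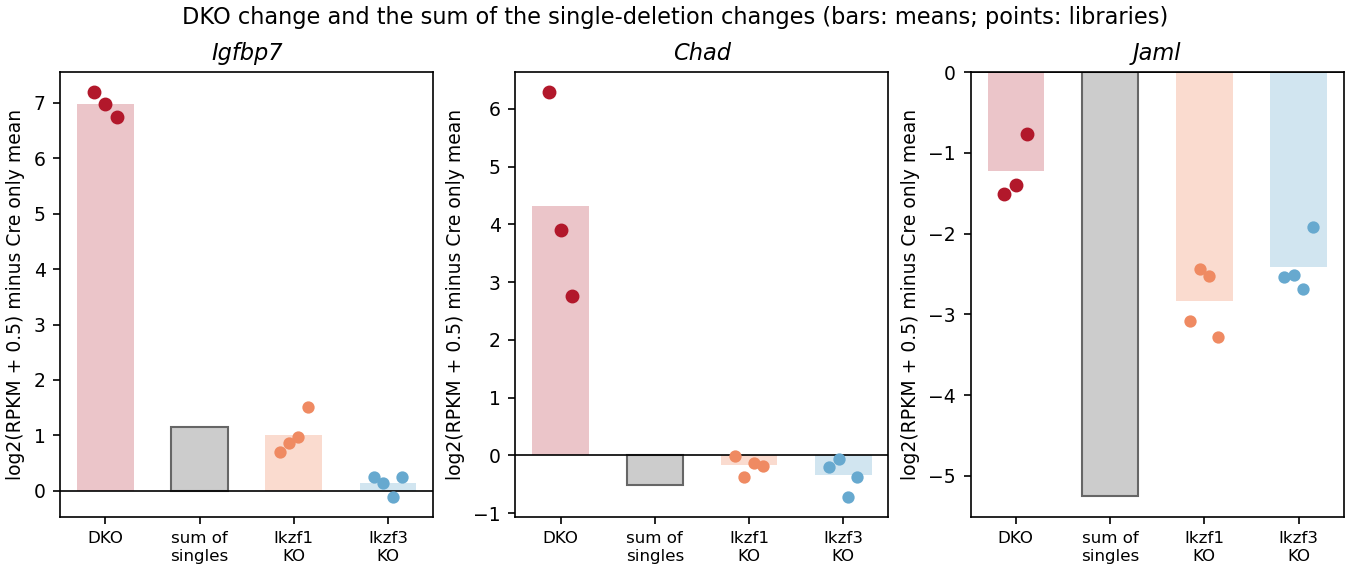
Change from the Cre only mean on log2(RPKM + 0.5) in DKO cells, as the sum of the single changes (grey) and in each single knockout; bars are means and points are libraries. The DKO bars exceed the grey bars by 5.83 for Igfbp7, 4.83 for Chad and 4.02 for Jaml.

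Among the 10032 genes tested, 6.55% departed from additivity in either direction by limma with Benjamini-Hochberg adjustment at 0.05, a contrast that chose the members and so gives no support here. From the highest departure down, Igfbp7 ranked 1, Chad 4 and Jaml 14. The next gene after Igfbp7 was Trgj1 at 5.29. Chad lay between Trgv2 at 5.16 and Tcrg-C2 at 4.61, and Jaml between Tcrg-V4 at 4.09 and Trbv13-2 at 3.99. The genes directly beside them in this order were thus segments of T cell receptor loci.

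The labels of the deletions and of the cells were checked on other genes. Ikzf1 ran from 25.3 to 38.4 RPKM in DKO, 18.3 to 19.9 in Ikzf1 KO, 72.9 to 87.4 in Ikzf3 KO and 57.7 to 69.4 in Cre only libraries. Ikzf3 ran from 20.0 to 23.7 RPKM in DKO, 46.3 to 49.7 in Ikzf1 KO, 15.2 to 20.2 in Ikzf3 KO and 37.7 to 45.0 in Cre only libraries, and reads of undeleted exons count in these values. Of 10 NK marker genes 9 had values, and each averaged above 1 RPKM in all 4 groups. Their summed RPKM, mostly granzymes, ran from 3539 to 8790 in DKO, 23750 to 26970 in Ikzf1 KO, 6287 to 18580 in Ikzf3 KO and 19120 to 23690 in Cre only libraries. The lowest value in each spread group belonged to S5 in the DKO and to S3 and S4, at 6287 and 7933, in the Ikzf3 KO. The granzyme genes Gzma and Gzmb averaged 3085 and 2440 RPKM in DKO and 10870 and 9523 in Cre only cells. Nkg7 averaged 847 RPKM in DKO and 1190 in Cre only cells. Klrb1c, Itga2 and Tbx21 were also lower in DKO cells, by a smaller share. Ncr1 (201 against 147 RPKM), Eomes (71.8 against 53.5) and Klrk1 (85.1 against 61.6) were instead higher in DKO cells. The sum therefore does not speak for every NK marker. Without S3 and S4 the departures were 5.77 for Igfbp7, 4.62 for Chad and 4.13 for Jaml.

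Markers of other cell types differed in how they moved with these genes. Of 19 endothelial and stromal markers, the cells for which Igfbp7 is best known, 2 had values (Egfl7 and Plvap). Both averaged below 1 RPKM in every group, and their sum reached 1.95 RPKM in DKO, 1.02 in Ikzf1 KO, 0.635 in Ikzf3 KO and 0.461 in Cre only libraries. Of 14 myeloid markers 4 had values, with sums of 218 to 253 RPKM in DKO, 130 to 156 in Ikzf1 KO, 192 to 210 in Ikzf3 KO and 152 to 188 in Cre only libraries. These were mostly Ccr2, which averaged 224.5 RPKM in DKO, 120.3 in Ikzf1 KO, 155.9 in Ikzf3 KO and 141 in Cre only cells. Cd68 was instead lowest in DKO cells, at 9.81, 20.1, 43.2 and 25.4 RPKM in the same order. Cd14 averaged 1.06, 1.31, 2.66 and 0.249 RPKM. Lyz2, the myeloid lysozyme gene, was at most 1.94 RPKM. Of 8 T cell markers 7 had values, with sums of 216 to 479 RPKM in DKO, 27.8 to 72.4 in Ikzf1 KO, 77.6 to 88.3 in Ikzf3 KO and 29.3 to 102 in Cre only libraries. Trac averaged 128 RPKM in DKO and 17.95 in Cre only cells, Cd3d 135 and 13.5, and Cd3e 37.3 and 1.52. Cd3g averaged 46.3 and 32.2 RPKM in these groups, and Cd28 20.1 and 5.86, with 35.9 in Ikzf3 KO cells. Cd4 and Cd6 averaged below 1 RPKM in all groups, at 0.940 and 0.636 in DKO and 0.204 and 0.125 in Cre only cells. Within the DKO the T cell sum and the NK sum were both lowest in S5. The B cell list had a value for Cd79b alone of 6, at 0.516 to 2.23 RPKM in DKO, 0.777 to 1.54 in Ikzf1 KO, 0 to 0.0796 in Ikzf3 KO and 0.156 to 0.522 in Cre only libraries. The part of the T cell, myeloid and B cell signals in the results was not tested. In bulk libraries fewer cells of a type and less RNA per cell cannot be told apart.

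The genes beside the members on the chromosome were not used to choose them and could be tested. For each member the 3 nearest genes on either side that passed the filter were taken, 18 in all. Against Cre only cells, 4 rose, 1 fell and 13 did not pass in DKO cells (27.8%, where 18.7% of all genes tested were called), with a median log2 change of 0.06 against 0.00 over all genes. In Ikzf1 KO cells 1 rose and 17 did not pass (5.56%, background 6.32%; medians -0.03 and -0.01), and in Ikzf3 KO cells 1 rose and 17 did not pass (5.56%, background 14.2%; medians -0.14 and -0.02). Of the 18, 2 departed upward from additivity, 1 downward and 15 did not pass (16.7%, background 6.55%; medians 0.41 and 0.00). With counts this small the shares near the background are no result about the neighbours.

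Around Igfbp7 none of the 6 neighbours was called in any of these 4 comparisons by limma with Benjamini-Hochberg adjustment. At an unadjusted p under 0.05, 0 were past it in DKO, 2 in Ikzf1 KO and 3 in Ikzf3 KO cells against Cre only, and 2 for the departure, where the shares over all genes were 32.02%, 19.7%, 34.1% and 20.9%. Some alternatives called a few of them. Stap1, a signalling adaptor gene, was called without S3 and S4 in Ikzf1 KO (-0.51, adjusted p = 0.0385) and Ikzf3 KO cells (-0.88, adjusted p = 0.0122) and for the departure (1.30, adjusted p = 0.00724). Without S4 alone it was called in Ikzf3 KO cells (-0.80, adjusted p = 0.0132) and for the departure (1.22, adjusted p = 0.00974). Noa1 was called in DKO cells without S3 and S4 (0.40, adjusted p = 0.0473), and in Ikzf3 KO cells without S1 (-0.87, adjusted p = 0.0355) or S2 (-0.89, adjusted p = 0.0363). Polr2b was called in Ikzf3 KO cells without S1 (-0.37, adjusted p = 0.0351), and Cenpc1, a centromere protein gene, in Ikzf1 KO cells without S18 and S19 (0.61, adjusted p = 0.039). Array weights called Noa1, Rest, Cenpc1 or Stap1 in each of the 4 comparisons. Polr2b, an RNA polymerase II subunit gene that overlaps the end of Igfbp7, had a log2 change of 0.01 ± 0.14 (SE) in DKO cells. Noa1, a mitochondrial GTPase gene, and Rest, a repressor of neuronal genes, had 0.40 ± 0.32 and -0.08 ± 0.14. On the other side the nearest gene that passed the filter, the ribosomal pseudogene Rpl7-ps7, lay 4929 kb away, and Cenpc1 and Stap1 lay 8604 and 8664 kb away.

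Around Chad the library S5 stood out again. Rsad1, a gene of the radical SAM family 15.8 kb from Chad, had 19.8, 7.65 and 4.51 RPKM in the DKO libraries S5, S6 and S7, against 3.43 to 4.21 RPKM in Cre only cells. Abcc3, an efflux transporter gene 172 kb away, had 6.54, 2.66 and 2.06 RPKM in the DKO, against 0.397 to 0.966 RPKM in Cre only cells. Acsf2, an acyl-CoA synthetase gene whose span holds Chad, had 85.4, 29.4 and 27.7 RPKM in the DKO, against 30.5 to 47.5 RPKM in Cre only cells. In S5, Rsad1, Abcc3 and Acsf2 had their highest value of all 15 libraries, as did Chad. Ankrd40, also highest in S5, had 28.7, 20.97 and 19.8 RPKM in the DKO, while Lrrc59 and Eme1 were lowest in S5 among the DKO libraries. Of the family genes and other neighbours named here, Itga1, Igf1r, Kazald1, Cep164 and Igfbp4 were also highest in S5, and the others were not. The correlated genes named further below were not checked for this. The share of all genes that were highest in S5 was not computed. Whether these peaks are particular to the genes around Chad was therefore not tested.

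Abcc3 rose in DKO cells, with a log2 change of 1.71 ± 0.34 (adjusted p = 0.00344) that was 1.27 without S5 (adjusted p = 0.0146). Rsad1 departed from additivity by 2.46 ± 0.50 (adjusted p = 0.00876), and by 1.91 without S5 (adjusted p = 0.00967). Its rise of 1.13 ± 0.36 in DKO cells (adjusted p = 0.0446) was 0.57 without S5 (adjusted p = 0.174) and lost its call when any one of S6, S12 to S15 or S16 to S19 was left out (log2 changes 1.08 to 1.23, adjusted p up to 0.1). Without S16 and S17 together Rsad1 changed by 1.22 (adjusted p = 0.122), and without S18 and S19 by 1.04 (adjusted p = 0.181). Acsf2 had a log2 change of 0.14 ± 0.33 in DKO cells (adjusted p = 0.806), and of -0.38 without S5 (adjusted p = 0.308). Eme1, a DNA repair nuclease gene, rose in Ikzf1 KO cells by 0.94 ± 0.24 (adjusted p = 0.0275), a call lost when any one of S12 to S18 was left out (0.77 to 1.00, adjusted p up to 0.0893). Without S16 and S17 together Eme1 changed by 0.56 there (adjusted p = 0.305). Its level was 9.35 ± 0.545 RPKM in Ikzf1 KO and 4.84 ± 1.83 RPKM in Cre only cells (SD, n = 4 each).

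**Figure D3:**
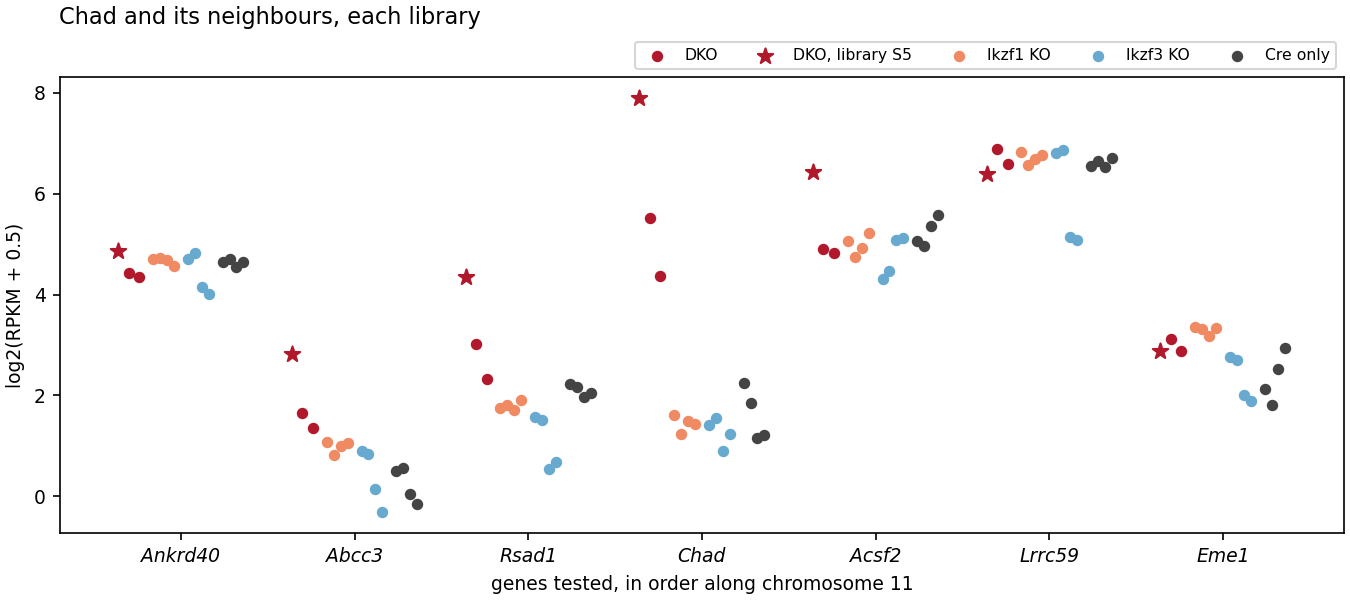
Chad and the 3 nearest tested genes on each side in order along chromosome 11, as log2(RPKM + 0.5) per library, coloured by group, with DKO library S5 as a star. S5 is the highest library for Ankrd40, Abcc3, Rsad1, Chad and Acsf2, and below both other DKO libraries for Lrrc59 and Eme1.

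Jaml lies near the genes of the CD3 chains of the T cell receptor complex, and these differed from Cre only cells in the other direction in the DKO. Cd3e, 69.6 kb away, had 24.8, 42.4 and 44.8 RPKM in the DKO libraries S5 to S7, against 0.237 to 3.10 RPKM in Cre only cells. It departed from additivity by 3.84 ± 0.77 (adjusted p = 0.00874), and by 4.10 without S5 (adjusted p = 0.014). Cd3d, 91.8 kb away, had 63.8, 177 and 164 RPKM in the DKO, against 2.97 to 23.9 RPKM in Cre only cells, a log2 change of 3.54 ± 0.62 (adjusted p = 0.00124). Its departure of 2.03 ± 0.84 did not pass (adjusted p = 0.185). In Cre only cells both CD3 genes were lower in S18 and S19 than in the other 2 libraries, and leaving S18 and S19 out gave DKO changes that were 3.48 for Cd3e and 2.45 for Cd3d, still called, and a Cd3d departure of 3.11 that passed (adjusted p = 0.0174).

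The immediate neighbour Mpzl3, a membrane protein gene 1.7 kb from Jaml, had log2 changes of -0.26 ± 0.32 in DKO, -0.11 ± 0.30 in Ikzf1 KO and -0.48 ± 0.30 in Ikzf3 KO cells, none called (adjusted p = 0.619, 0.914 and 0.259). On the far side, Il10ra, the interleukin 10 receptor chain gene, lay 145 kb away. It had 9.25, 10.6 and 19.5 RPKM in DKO, 31.1 to 43.5 in Ikzf1 KO, 54.95 to 112 in Ikzf3 KO and 34.6 to 40.3 RPKM in Cre only libraries. It departed downward by -2.55 ± 0.35 (adjusted p = 0.000847), a sign opposite to that of Jaml. Its rise in Ikzf3 KO cells, 1.01 ± 0.23 (adjusted p = 0.0126), lost its call without S3 and S4 (0.63, adjusted p = 0.0993) and when S16 and S17 (1.04, adjusted p = 0.0732) or S18 and S19 (0.99, adjusted p = 0.0765) were left out. Cep164 and Gm16536, the other two neighbours, were called in none of the 4 comparisons.

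**Figure D4:**
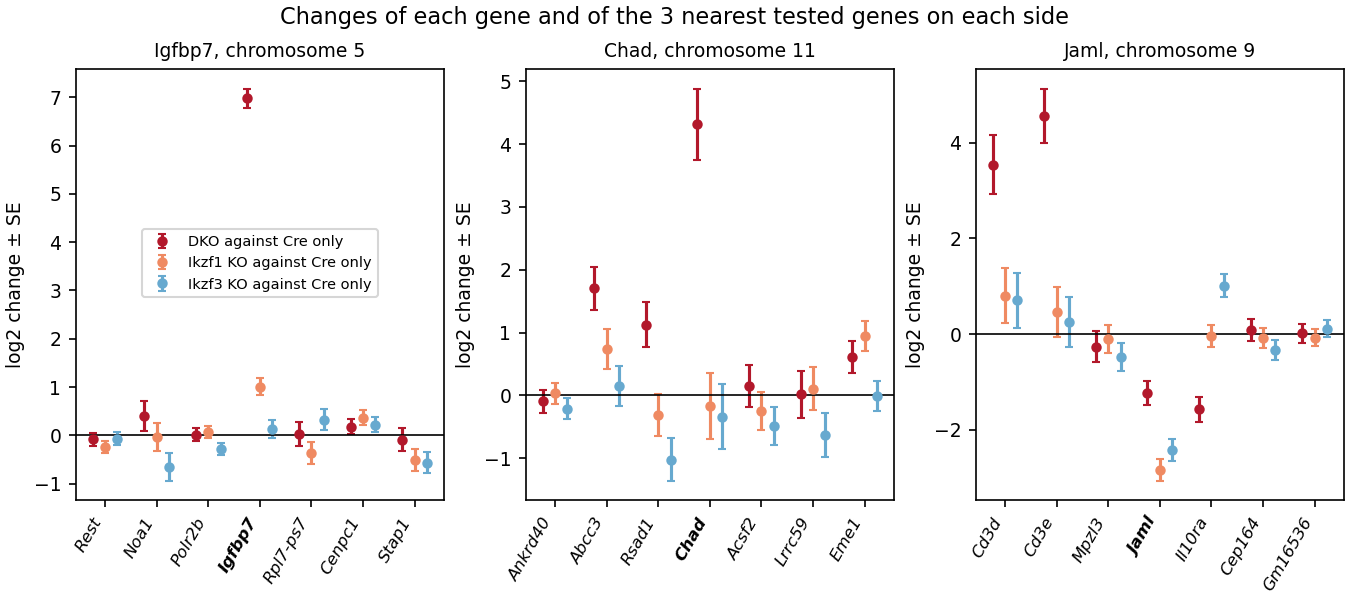
Log2 change against Cre only ± SE in DKO, Ikzf1 KO and Ikzf3 KO cells for each member and its tested neighbours in chromosome order. Neighbours of Igfbp7 lie near 0 in DKO cells, Abcc3 and Rsad1 lie above 0 beside Chad, and Cd3d and Cd3e lie above 0 beside Jaml while Il10ra lies below.

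Genes of the families and partners of the members were tested as 3 lists, which leave out the members. The lists were made with earlier results of these data known, so a share above the background is no independent support. Over the lists 17 genes passed the filter, among them Igf1r, which passed only through the DKO libraries and counts below among those called higher in DKO cells. In DKO against Cre only cells 5 rose, 5 fell and 7 did not pass (58.8%, where 18.7% of all genes were called; medians 0.08 and 0.00). Without S6, 6 of the family genes were called there. In Ikzf1 KO cells 2 rose, 3 fell and 12 did not pass (29.4%, background 6.32%; medians 0.16 and -0.01). In Ikzf3 KO cells 3 fell and 14 did not pass (17.6%, background 14.2%; medians -0.65 and -0.02). For the departure 2 were higher, 2 lower and 13 did not pass (23.5%, background 6.55%; medians 0.14 and 0.00).

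In the insulin-like growth factor list 7 of 21 genes were tested. In DKO cells 3 were called higher, Igf1r included, 3 fell and 1 did not pass (85.7%, background 18.7%). Kazald1, a secreted relative of the binding proteins, had 9.46, 4.84 and 8.49 RPKM in the DKO libraries S5 to S7, against 0.146 to 0.411 RPKM in Cre only cells (log2 change 3.30 ± 0.31, adjusted p = 6.06e-06). Igf1r, the receptor tyrosine kinase gene for IGF1, had 5.21, 2.81 and 1.81 RPKM in the DKO, against 0.0911 to 0.271 RPKM in Cre only cells (log2 difference 2.37 ± 0.30). It passed the filter only through the 3 DKO libraries, and so had to differ there, which makes its call no support. Igfbp6, a listed gene outside the rule for named genes and described after its values were seen, rose by 1.08 ± 0.27 (adjusted p = 0.0125). That call was lost without S6 (0.92, adjusted p = 0.08) or without S16 and S17 (0.90, adjusted p = 0.111). Igfbp4, also named after its values were seen, did not pass the filter, with 18.9 RPKM in S5, 0.844 and 0.921 in the other DKO libraries and at most 0.152 RPKM elsewhere.

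Cd93, an endothelial and leukocyte receptor that is known to bind IGFBP7, fell in DKO cells while Igfbp7 was high. It had 3.44, 4.35 and 9.19 RPKM in the DKO libraries S5 to S7, against 18.2 to 25.3 RPKM in Cre only cells (log2 change -1.97 ± 0.35, adjusted p = 0.00145). Irs2, an adaptor of insulin and IGF1 receptors, fell by -2.59 ± 0.37 (adjusted p = 0.000236), and its departure of -2.31 ± 0.51 (adjusted p = 0.0146) lost its call without S6 (-2.04, adjusted p = 0.0527) or without S18 and S19 (-1.70, adjusted p = 0.0505). Htra1, a listed protease gene likewise described after its values were seen, fell by -1.41 ± 0.29 in DKO cells (adjusted p = 0.00351). Its departure of -1.54 ± 0.39 (adjusted p = 0.031) was not called in fits that each left out S3, S5, S6, S12, S14, S16 or S17, where it was -1.51 to -1.36 with an adjusted p of 0.0561 to 0.092. Without S16 and S17 together the Htra1 departure was -1.12 (adjusted p = 0.126). In Ikzf1 KO cells Kazald1 had a log2 change of 1.12 ± 0.29 (adjusted p = 0.0321), the only call of the list in a single knockout, lost when any one of S12 to S19 was left out (1.02 to 1.19, adjusted p up to 0.0974). It was also lost without S16 and S17 (1.21, adjusted p = 0.118) and without S18 and S19 (1.03, adjusted p = 0.152).

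In the list of leucine-rich repeat matrix proteins and collagen-binding integrins 5 of 22 genes were tested. Itga2, the collagen-binding CD49b chain of NK cells, had 6.12, 5.03 and 3.93 RPKM in DKO, 1.56 to 2.97 in Ikzf1 KO, 1.95 to 2.70 in Ikzf3 KO and 3.27 to 8.26 RPKM in Cre only libraries. Its departure of 2.15 ± 0.39 passed (adjusted p = 0.00522). It was lower in both single knockouts, by -1.15 ± 0.26 in Ikzf1 KO (adjusted p = 0.018) and -1.11 ± 0.26 in Ikzf3 KO cells (adjusted p = 0.0143), while in DKO cells the change was -0.11 ± 0.29 (adjusted p = 0.823). The Ikzf1 KO call was lost without S12, S13, S14 or S18 (-1.16 to -0.97, adjusted p up to 0.0707), and both single-knockout calls without S18 and S19 together (-0.60 and -0.56, adjusted p = 0.159 and 0.147). Tsku, a secreted relative of Chad, was called higher in DKO cells at 1.74 ± 0.56 (adjusted p = 0.0456), with 0.506, 3.09 and 7.54 RPKM in S5 to S7, against 0.0401 to 1.14 RPKM in Cre only cells. That call was lost when any one of S1, S2, S3, S6, S7, S12 to S15, S18 or S19 was left out (1.04 to 1.74, adjusted p up to 0.231). Without S18 and S19 together the change was 0.97 (adjusted p = 0.355). Itgb1, the shared beta chain, had 0.48 ± 0.17 in DKO cells (adjusted p = 0.0654). Itga1, another collagen-binding chain, had -1.06 ± 0.44 (adjusted p = 0.112), and -1.85 without S5 (adjusted p = 0.000243).

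In the list of junctional adhesion molecules and their integrin partners 5 of 14 genes were tested, and Cxadr was not analysed here. Itgal, the alpha chain of LFA-1, had 160, 145 and 143 RPKM in DKO, 94.0 to 131 in Ikzf1 KO, 76.8 to 135 in Ikzf3 KO and 164 to 204 RPKM in Cre only libraries. Like Jaml it was lower in both single knockouts, by -0.72 ± 0.17 (Ikzf1 KO, adjusted p = 0.0193) and -0.68 ± 0.17 (Ikzf3 KO, adjusted p = 0.0171), and departed upward by 1.17 ± 0.25 (adjusted p = 0.0115). The Ikzf1 KO call was lost without S12, S13 or S14 (-0.73 to -0.67, adjusted p up to 0.0735), and the Ikzf3 KO call without S3 and S4 together (-0.42, adjusted p = 0.0717). Both calls were also lost without S16 and S17 (adjusted p = 0.0779 in Ikzf1 KO and 0.07 in Ikzf3 KO) and without S18 and S19 (adjusted p = 0.111 in Ikzf1 KO and 0.11 in Ikzf3 KO). Itgb2, its beta chain, fell in DKO cells by -1.11 ± 0.19 (adjusted p = 0.00101) and in Ikzf3 KO cells by -0.73 ± 0.18 (adjusted p = 0.015), the second not called without S16 and S17 (-0.82, adjusted p = 0.0578) or with S18 and S19 left out (-0.64, adjusted p = 0.114). Itgam, the CD11b chain that pairs with it, had 0.0488 to 0.0935 RPKM in DKO, 1.42 to 1.85 in Ikzf1 KO, 2.26 to 6.51 in Ikzf3 KO and 3.85 to 7.88 RPKM in Cre only libraries. It fell in DKO cells by -3.53 ± 0.28 (adjusted p = 1.33e-06) and in Ikzf1 KO cells by -1.61 ± 0.26 (adjusted p = 0.002), with a departure of -1.19 ± 0.38 that did not pass (adjusted p = 0.0846). F11r, encoding JAM-A, was called higher in DKO and Ikzf1 KO cells at 1.21 ± 0.34 and 1.16 ± 0.31 (adjusted p = 0.023 and 0.0417), at levels of 1.45 ± 0.730 (SD, n = 3) and 1.29 ± 0.267 (SD, n = 4) RPKM, against 0.309 ± 0.157 (SD, n = 4) in Cre only cells. The DKO call was lost without S6, S7, S18 or S19 (0.96 to 1.18, adjusted p up to 0.117), and the Ikzf1 KO call without S6 or any of S12 to S19 (1.05 to 1.27, adjusted p up to 0.128). Both were also lost without S16 and S17 (adjusted p = 0.0505 in DKO and 0.0968 in Ikzf1 KO). Without S18 and S19 the changes were 1.01 and 0.95 (adjusted p = 0.148 and 0.236).

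The genes most like each member over the 15 libraries were found by Pearson correlation of log2(RPKM + 0.5) among 6877 named genes with a group mean of at least 5 RPKM. Libraries of a group share their genotype, so the 15 points are not independent and the correlations are a description. Among the genes that followed Igfbp7 most closely were Batf3 (r = 0.959), Tmem64 (0.957), Dmrta1 (0.95) and Smim10l1 (0.949). Batf3, a transcription factor gene of the AP-1 superfamily, had 6.86 ± 3.05 RPKM in DKO (SD, n = 3), 0.516 ± 0.283 in Ikzf1 KO, 0.0876 ± 0.0755 in Ikzf3 KO and 0.191 ± 0.0896 RPKM in Cre only cells (SD, n = 4 each). Chad was followed by Fcgrt (0.94), Nptn (0.936), Igfbp7 itself (0.927), Cstf2t (0.924) and Gpr183 (0.914). Igfbp7 and Chad were chosen on their departures over these same libraries, so their correlation with each other is not independent of the choice. Gpr183, an oxysterol receptor gene, had 27.1 ± 10.9 RPKM in DKO (SD, n = 3), 1.99 ± 0.271 in Ikzf1 KO, 4.51 ± 0.873 in Ikzf3 KO and 2.53 ± 1.01 RPKM in Cre only cells (SD, n = 4 each).

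Jaml had its own set, with lower correlations: Ube2j1 (0.863), Rrad (0.849), Mob1a (0.841), Shisa5 (0.832) and Ifi208 (0.802). Its correlation with Igfbp7 was 0.072 and with Chad 0.175. Rrad, a small GTPase gene, had 9.36 ± 1.88 RPKM in DKO (SD, n = 3), 7.87 ± 0.964 in Ikzf1 KO, 7.09 ± 0.415 in Ikzf3 KO and 15.7 ± 1.28 RPKM in Cre only cells (SD, n = 4 each). Shisa5, a gene of the endoplasmic reticulum membrane, had 312 ± 16.8 RPKM in DKO (SD, n = 3), 276 ± 13.4 in Ikzf1 KO, 248 ± 26.5 in Ikzf3 KO and 454 ± 26.3 RPKM in Cre only cells (SD, n = 4 each). Like Jaml, both had their highest group mean in Cre only cells and the next in DKO cells, over a smaller range.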

How the data were processed

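Messenger RNA of 15 cultured NK cell libraries was analysed, and 21 samples are described in the labels. The deposited table holds RPKM as the authors computed it for 11736 genes, without counts. Per the submitters' processing notes STAR, featureCounts, limma 3.34.9 and the build mm10 were used, without settings. Per the labels, stranded libraries of polyadenylated RNA were read as single ends of 75 bp. Column names give the genotype but no replicate number, and match only the cultured groups in size. The labels speak of biological replicates; p-values measure the spread between these samples.

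With exon lengths of GENCODE mouse release 21, 11291 genes (96.2%) came out as whole reads in every library within 0.02 read. Reads in these genes ran from 8.6 to 21.2 megareads per library, so depth limits only genes with few reads. A count of 0 allows 3 reads, and 95% intervals of read ratios (Clopper-Pearson) cover counting error only.

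Genes with RPKM of at least 1 in at least 3 libraries were kept (10032). log2(RPKM + 0.5) entered a linear model (limma 3.58.1 under R 4.3.3) of the 4 group means, with a mean-variance trend and robust moderation on 11 residual degrees of freedom, 2-sided, and Benjamini-Hochberg adjustment over all genes at 0.05. The fit was also run on simulated data with independent normal noise and known departures in well expressed genes. That run did not cover departures of genes with few reads, or libraries that stand apart from their group. Read recovery, intervals and figures used Python 3.11.15 with scipy 1.17.1, pandas 2.3.3, numpy 2.4.6 and, for the plots, matplotlib 3.10.9. Promoter sequences are from RefSeq (GRCm38.p6), and all 3 members matched by symbol.

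The members and gene lists were chosen with earlier results of these data known. Named genes were the members, Ikzf1 and Ikzf3, the 3 nearest tested genes on each side, up to 4 genes per family list with the smallest adjusted p, and the 5 genes most correlated with each member, without predicted genes and antigen receptor segments. A gene named by this rule is not reported here. Alternatives were pseudocounts of 0.1 and 1, no filter, median-ratio rescaling, quantile normalization, array weights estimated gene by gene, and leaving out each library, S3 and S4, S16 and S17, or S18 and S19.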

Additional observations from a re-analysis of the deposited data

Results flagged for a closer look

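A sample apart from its group was found in 2 of 15 groups of 4 libraries tested with Dixon's test at the 95% level, where chance gives about 1 in 20. Igfbp7 had 0.172 RPKM in the Cre only library S16, from 3 reads, and 0 in the other Cre only libraries. Beside equal values of 0, any read at all gives the highest possible statistic. This flag was therefore fixed in advance, and the rate of 1 in 20 does not hold for it. Jaml had 15.02 RPKM in the Cre only library S17, below the 20.1 to 21.1 RPKM of the other Cre only libraries.

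By the limma test, 3 of 18 neighbours (16.7%) and 4 of 17 family genes (23.5%) departed from additivity on the log2 scale. The share over all genes tested was 6.55%. The family lists were made with earlier results of these data known, and Htra1 was described after its values were seen. Upward departures were 2.46 for Rsad1 (adjusted p = 0.00876), 3.84 for Cd3e (adjusted p = 0.00874), 2.15 for Itga2 (adjusted p = 0.00522) and 1.17 for Itgal (adjusted p = 0.0115). Downward departures were -2.55 for Il10ra (adjusted p = 0.000847), -2.31 for Irs2 (adjusted p = 0.0146, and 0.0527 without S6) and -1.54 for Htra1 (adjusted p = 0.031, and up to 0.092 without single libraries).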

How the results depend on the processing

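The departures of Igfbp7, Chad and Jaml stayed positive under every alternative run. For Jaml the sign was nearly fixed in advance at the pseudocount of 0.5, which every run used except those at 0.1 and 1. At the pseudocount of 1 the sum of its single changes corresponded to a negative RPKM, so the sign was fixed there. With single libraries left out the departures of Igfbp7, Chad and Jaml ran from 5.72 to 5.998, 3.84 to 5.61 and 3.79 to 4.19. For Igfbp7 the pseudocount set the size of each difference, as its level is below the pseudocount of 0.5 in 10 of the 12 libraries outside the DKO. At pseudocounts of 0.1 and 1 the departure was 6.14 and 5.35, DKO against Cre only 9.03 and 6.03, against Ikzf1 KO 6.65 and 5.42, against Ikzf3 KO 8.53 and 5.97, Ikzf1 KO against Cre only 2.39 and 0.61, and Ikzf3 KO against Cre only 0.50 at 0.1. With array weights Chad had a departure of 3.88 and DKO differences of 3.46 against Ikzf1 KO, 3.45 against Ikzf3 KO and 3.04 against Cre only. With single libraries left out these differences ran from 3.50 to 5.27, 3.67 to 5.43 and 3.33 to 5.10, and the linear departure from 31.4 to 140.7 RPKM for Chad and 61.8 to 72.05 RPKM for Igfbp7. The counts of genes called against Cre only were 1872 (DKO), 634 (Ikzf1 KO) and 1423 (Ikzf3 KO), with 657 for the departure. With array weights they were 4477, 3634, 2367 and 2406. With S3 and S4 left out they were 3642 (DKO), 1698 (Ikzf1 KO) and 1005 (departure). With S16 and S17 left out they were 1083 (DKO), 366 (Ikzf1 KO) and 555 (Ikzf3 KO). Without both S18 and S19, 740 were called in Ikzf3 KO. Single libraries that moved a count by over 1.5 times were S6 in DKO, S12, S13, S14 and S18 in Ikzf1 KO, S1 to S4 and S16 to S18 in Ikzf3 KO, and S6, S12, S13 and S14 for the departure. With single libraries left out they ran from 976 to 2299, 332 to 822, 819 to 2985 and 344 to 839 in the same order as first given. Among the 18 neighbours, array weights called 5 in Ikzf1 KO, 6 in Ikzf3 KO and 9 for the departure. In Ikzf1 KO 2 were called with S3 and S4 left out, 0 with S16 and S17 left out and 2 with S18 and S19 left out. In Ikzf3 KO 2 were called at a pseudocount of 0.1 and 0 without S16 and S17 or S18 and S19. Leaving out single libraries gave 0 to 1 in Ikzf1 KO and 1 to 5 in Ikzf3 KO. Among the 17 family genes, array weights called 11 in Ikzf1 KO, 5 in Ikzf3 KO and 11 for the departure. In Ikzf1 KO 3 were called at a pseudocount of 1, 9 with S3 and S4 left out, 3 with S16 and S17 left out and 1 with S18 and S19 left out. In Ikzf3 KO 1 was called without S16 and S17, and for the departure 7 without S3 and S4. Leaving out single libraries gave 6 to 11 in DKO, 1 to 7 in Ikzf1 KO, 3 to 6 in Ikzf3 KO and 2 to 6 for the departure. The named genes that are no members had 32 calls, and over the alternatives these were held in 669 values and lost in 96, while 91 values gained a call. The cause of these changes was not tested. No paired analysis was possible because the columns carry no replicate numbers.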
